A study of Mus musculus with 6 samples.

Results

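Transcripts of AP-1 and of other immediate early transcription factors were followed in pancreatic islets of Wt and Pax8 +/- mice. The 10 genes are Fos, Fosb, Fosl2, Jun, Junb, Jund, Atf3, Egr1, Ier2 and Klf6, chosen by name and each measured by 1 probe set, out of 22206 gene probe sets on the array. Islet RNA of 3 Wt samples, whose labels call them Control, and 3 Pax8 +/- samples was hybridized to mouse Clariom S arrays, 1 array per sample, to obtain the transcriptional profile of both genotypes. In Pax8 +/- mice 1 of the copies of Pax8, which thyroid follicular cells need, is disrupted in the whole body and not in islets alone, and the mice are a model of mild hypothyroidism. According to the methods all mice were C57BL/6 males, standard chow was the default and mice killed at 9 months, the age given with the islet results, were fasted for 16 hours. No T4 treatment is stated for either group. Islets were obtained by collagenase perfusion of the pancreas and picked by hand. The sources do not tell if the islets on an array came from a single mouse or from a pool. The p-values therefore set the difference between the groups only against the spread between these samples, which may be technical in part.

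AP-1 is a dimer of basic leucine zipper proteins. A Fos protein pairs with a Jun protein and the pair binds short palindromic sites in promoters and enhancers, while Jun proteins also pair with ATF proteins such as Atf3. Immediate early genes are transcribed within minutes of a stimulus and need no new protein for it, because the factors that switch them on, serum response factor with its partners and CREB, are already present and are activated by MAP kinases, calcium and cyclic AMP. In beta cells glucose and depolarisation are known stimuli, and in many tissues enzymatic dissociation is another. Their mRNAs are short-lived, so that a level reflects recent transcription.

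The CRE, the site of CREB, has the palindrome TGACGTCA, of which TGACG is the core on either strand. Promoter sequences of 8 of the 10 genes were taken from RefSeq (build GRCm38.p6), those of Egr1 and Ier2 were not matched, and the 250 bases before the transcript start of that table were searched on both strands. The core TGACG was found before Fos, Fosb, Junb and Atf3 (4 of the 8, against 17.8% of all 32851 promoter windows of this length). It is part of the full palindrome, which none of the 8 held (1.55% of all windows). A variant of the palindrome, TGACATCA, was found before Jun and Klf6 (2.93% of all windows), and GCGGGGGCG, a site bound by Egr proteins, before Fosb and Fosl2 (2.57% of all windows). TGANTCA, the usual AP-1 site (6.75% of all windows), and the CArG box, the site of serum response factor (1.47% of all windows), were not in the 8 windows. Bases further upstream were not searched, so that a site missing here may lie there. A match is a description of letters and no evidence of binding. The 30 bases around each match are shown, with the matched letters in capitals, to let the promoters of these 7 genes be compared beside their levels.
Fosb (chr7:19310084-19310113, minus strand): gttgcgggTGACGcaagcGCGGGGGCGggt
Fos (chr12:85473753-85473782, plus strand): cgtagagtTGACGacagagcgcccgcagag
Fos (chr12:85473816-85473845, plus strand): ccgcccagTGACGtaggaagtccatccatt
Fosl2 (chr5:32136385-32136414, plus strand): ggctgcgcGCGGGGGCGgaagggcgcgcgc
Jun (chr4:95052246-95052275, minus strand): cctcggggTGACATCAtgggctatttttag
Junb (chr8:84978833-84978862, minus strand): cctgacagTGACGcgagccgcctcctcccc
Atf3 (chr1:191183334-191183363, minus strand): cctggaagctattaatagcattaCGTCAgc
Klf6 (chr13:5861362-5861391, plus strand): gtgcgagcTGACATCAtcgtcgcgcagccc

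All levels are log2 values as deposited, after RMA, a procedure of background correction, normalization between arrays and summary over the probes of a probe set. As background of an array, the 95th percentile of its 5222 negative control probe sets was used, at 7.60 to 7.97. It was exceeded by 25.3% to 29.5% of the gene probe sets. The islet hormone genes Ins2 and Gcg were at the maximum of every array, 19.88 to 19.93, which hides any difference in them. Pax8 itself was at 4.58 to 5.05, above that background on 0 of the 6 arrays, and gives no check of the genotype labels. Of the 10 genes, Jun, Jund, Atf3, Egr1 and Klf6 exceeded background on all 6 arrays, Junb on 5, Fosb on 4, Fosl2 on 2, and Fos and Ier2 on 0. The number of arrays limits the precision, and an exact 2-sided permutation test of 3 samples against 3 cannot go below p = 0.1. Probes differ in how brightly they report a transcript, so that levels are compared between arrays and not between genes.

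**Figure D1:**
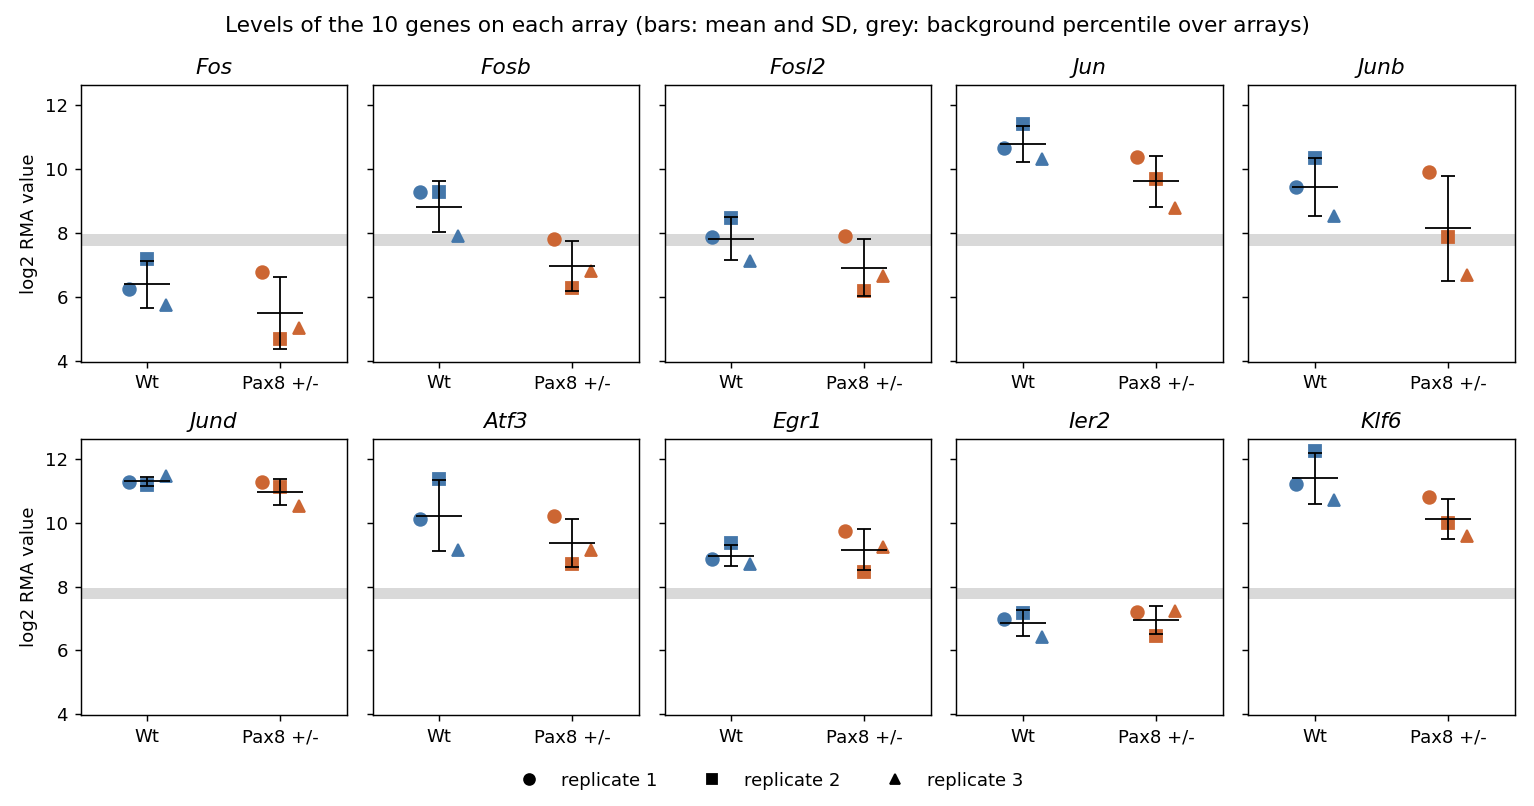
Log2 RMA value (y axis) of each of the 10 genes on the 3 Wt (blue) and 3 Pax8 +/- (orange) arrays. Symbols give the replicate, black bars the mean and SD (n = 3), and the grey band the background of the 6 arrays (7.60 to 7.97). Only for Fosb do the groups lie apart, and Fos and Ier2 lie below the band on every array.

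Fosb had the largest difference of the 10 genes and was lower in Pax8 +/- islets. It encodes a Fos protein, whose truncated splice form is known from neurons for its long life. Fosb (Entrez Gene 14282) had a level of 9.27, 9.29 and 7.90 on Wt replicates 1 to 3 and of 7.80, 6.27 and 6.80 on Pax8 +/- replicates 1 to 3. All Pax8 +/- arrays were below all Wt arrays, but Wt replicate 3 and Pax8 +/- replicate 1 were only 0.10 apart. Groups that do not overlap in this direction were found for 5.14% of all gene probe sets. The mean was 8.82 ± 0.80 (SD, n = 3) for Wt and 6.95 ± 0.78 (SD, n = 3) for Pax8 +/-, and the log2 difference was -1.87 (standard error 0.50, 95% interval -3.01 to -0.72), or 3.64-fold. Limma gave an unadjusted p = 0.00531, rank 45 of the 22206 probe sets, and an adjusted p = 0.745, and the exact permutation test gave p = 0.1, the smallest it allows. Fosb exceeded background on 3 Wt arrays but only on Pax8 +/- replicate 1, so that the size of the difference is not exact. On Pax8 +/- replicates 2 and 3 it exceeded 85.4% and 90.1% of the negative controls, against 95.6% to 97.3% on the Wt arrays.

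Fosl2 and Fos lay nearer to background, and their groups overlapped. Fosl2 encodes Fra-2, a Fos protein without the strong activation domain of Fos. Its level was 7.88, 8.46 and 7.11 on the Wt and 7.92, 6.17 and 6.66 on the Pax8 +/- arrays, and it exceeded background on Wt replicate 2 and Pax8 +/- replicate 1 alone. Pax8 +/- replicate 1 lay between Wt replicates 1 and 2, while the other Pax8 +/- arrays lay below all Wt arrays. The log2 difference was -0.90 (standard error 0.50, 95% interval -2.05 to 0.25), with an adjusted p = 0.745 from limma. Fos, the founding member of the family, was at 6.25, 7.19 and 5.73 on the Wt and at 6.79, 4.67 and 5.03 on the Pax8 +/- arrays, below background throughout. No fold change is given for it, since both groups lie within the negative controls. The difference of the log2 values was -0.89 (standard error 0.59, 95% interval -2.24 to 0.45), with an adjusted p = 0.762 from limma.

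Among the Jun genes, Jun and Junb had a lower mean in Pax8 +/- islets, and Jund differed least. Jun is the strongest activator of the family and positively controls its own promoter. Jun (Entrez Gene 16476) was at 10.66, 11.40 and 10.31 on the Wt arrays and at 10.38, 9.69 and 8.78 on the Pax8 +/- arrays. Its groups overlapped by 1 pair of arrays, Wt replicate 3 and Pax8 +/- replicate 1. Wt islets had a mean of 10.79 ± 0.55 (SD, n = 3) and Pax8 +/- islets of 9.62 ± 0.80 (SD, n = 3), so that the log2 difference was -1.17 (standard error 0.45, 95% interval -2.20 to -0.14), or 2.25-fold lower. The unadjusted p from limma was 0.0307, the adjusted p was 0.745 and the exact permutation p was 0.2.

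Junb, which often restrains Jun and is itself induced by many signals, spread most widely of the 10 genes. It was at 9.44, 10.36 and 8.53 on the Wt arrays and at 9.90, 7.86 and 6.67 on the Pax8 +/- arrays. Pax8 +/- replicate 1 was above 2 of the Wt arrays, and Pax8 +/- replicate 3 was below background. The difference of -1.30 (standard error 0.78, 95% interval -3.10 to 0.49), 2.47-fold, was within the spread between samples, with an adjusted p = 0.752 from limma. Jund, which cells express without a stimulus, was at 11.26, 11.18 and 11.45 on the Wt and at 11.27, 11.13 and 10.51 on the Pax8 +/- arrays. Only Pax8 +/- replicate 3 stood apart. For Jund the difference was -0.33 (standard error 0.28), and its 95% interval of -0.97 to 0.32 leaves out a fold change of 2.5 in either direction.

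**Figure D2:**
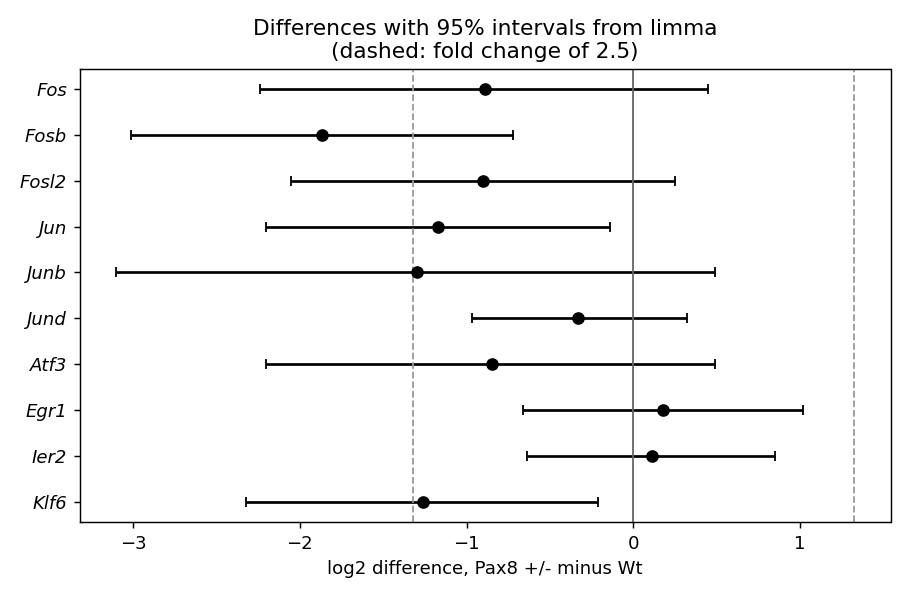
Log2 difference between Pax8 +/- and Wt islets (x axis) of each gene, with the 95% interval from limma. Dashed lines mark the fold change of 2.5 used in the study. The intervals of Fosb, Jun and Klf6 lie below 0, and those of Egr1, Ier2 and Jund lie between the dashed lines.

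Klf6 was the third gene with an unadjusted p under 0.05. It is a zinc finger factor induced by tissue injury. Klf6 (Entrez Gene 23849) was at 11.21, 12.24 and 10.70 on the Wt arrays and at 10.80, 9.98 and 9.57 on the Pax8 +/- arrays. As with Jun, Pax8 +/- replicate 1 was slightly above Wt replicate 3, and no other pair overlapped. Means were 11.38 ± 0.79 (SD, n = 3) and 10.12 ± 0.63 (SD, n = 3), a log2 difference of -1.26 (standard error 0.46, 95% interval -2.32 to -0.21), or 2.40-fold lower. The unadjusted p from limma was 0.0244, the adjusted p was 0.745 and the exact permutation p was 0.2. Atf3, a stress-induced member of the ATF family that can repress its targets, was at 10.12, 11.38 and 9.15 on the Wt and at 10.21, 8.72 and 9.16 on the Pax8 +/- arrays. Wt replicate 2 was high, and Wt replicate 3 was level with Pax8 +/- replicate 3. The log2 difference of Atf3 was -0.85 (standard error 0.59, 95% interval -2.20 to 0.49), with an adjusted p = 0.767 from limma.

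Egr1 and Ier2 did not share the lower mean. Egr1, a zinc finger factor induced by glucose in beta cells, was at 8.86, 9.35 and 8.70 on the Wt and at 9.74, 8.47 and 9.24 on the Pax8 +/- arrays. Both its highest and its lowest array were Pax8 +/- arrays. The log2 difference was 0.18 (standard error 0.37, 95% interval -0.66 to 1.02), with an adjusted p = 0.926 from limma. Ier2, a small nuclear protein, was at 6.98, 7.18 and 6.41 on the Wt and at 7.20, 6.46 and 7.22 on the Pax8 +/- arrays, below background on each, which leaves no level to compare. Whether the differences of Egr1 and Ier2 depart from those of Fosb, Jun and Klf6 was not tested.

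At the thresholds of the study, a fold change of at least 2.5 with an unadjusted p of at most 0.05, 1 of the 10 genes (Fosb) was lower and 0 higher in Pax8 +/- islets, against 0.351% and 0.648% of all gene probe sets. Groups without overlap were found for 1 of the 10 in the lower and 0 in the higher direction, against 5.14% and 4.52% of all. At the p threshold alone 3 of the 10 were lower (Fosb, Jun and Klf6) and 0 higher, against 2.77% and 3.14% of all gene probe sets. The calls of Jun and Klf6 at this threshold ended without moderation of the variances (unadjusted p = 0.106 and 0.0949, and 0.0439 for Fosb), and without Wt replicate 2, Pax8 +/- replicate 2 or Pax8 +/- replicate 3, which left Fosb alone. That of Jun ended also without Wt replicate 1 (unadjusted p = 0.0588 from limma). A lower mean was found for 8 of the 10 (50.8% of all), and the median log2 difference of the 10 was -0.89, against -0.01 over all gene probe sets. Fos and Ier2, above background on 0 arrays, and Fosl2, above it on 2, enter these values. The median lies between Fosl2 and Fos and so rests on genes near background. No gene probe set reached an adjusted p under 0.05 with limma (0 of 22206, with 1312 at an unadjusted p under 0.05), nor without moderation of the variances (0, with 976). The genes were chosen with earlier results of these arrays known and several of them respond to the same signals, so that these shares are no independent support.

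The arrays of 1 genotype lay far apart for most of the genes. The mean level of the 10 genes was 9.19, 9.80 and 8.60 on the Wt arrays and 9.20, 7.94 and 7.96 on the Pax8 +/- arrays. Pax8 +/- replicate 1 thus stood at the level of Wt replicate 1, and the other Pax8 +/- arrays stood below all Wt arrays. For 7 of the 10 genes Pax8 +/- replicate 1 fell between the lowest and the highest Wt array (55.8% of all gene probe sets), all except Fosb, Egr1 and Ier2. Pax8 +/- replicates 2 and 3 were both below every Wt array for 7 of the 10 (16.1% of all, and 24.4% of those above background on every array), the exceptions being Atf3, Egr1 and Ier2. Wt replicate 2 was the highest of the 6 arrays for 7 of the 10 (20.3% of all). Over the 6 arrays, Pearson's r of each gene with the mean of the other 9 was 0.87 to 0.98 for Fos, Fosb, Fosl2, Jun, Junb, Atf3 and Klf6, and 0.41 to 0.47 for Jund, Egr1 and Ier2. These values share the arrays and their normalization and are given as a description. Over all gene probe sets too, Pax8 +/- replicate 1 correlated more with the Wt arrays (mean r = 0.982) than with the other Pax8 +/- arrays (mean r = 0.965), and Wt replicate 3 more with the Pax8 +/- arrays (mean r = 0.981) than with the other Wt arrays (mean r = 0.976).

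**Figure D3:**
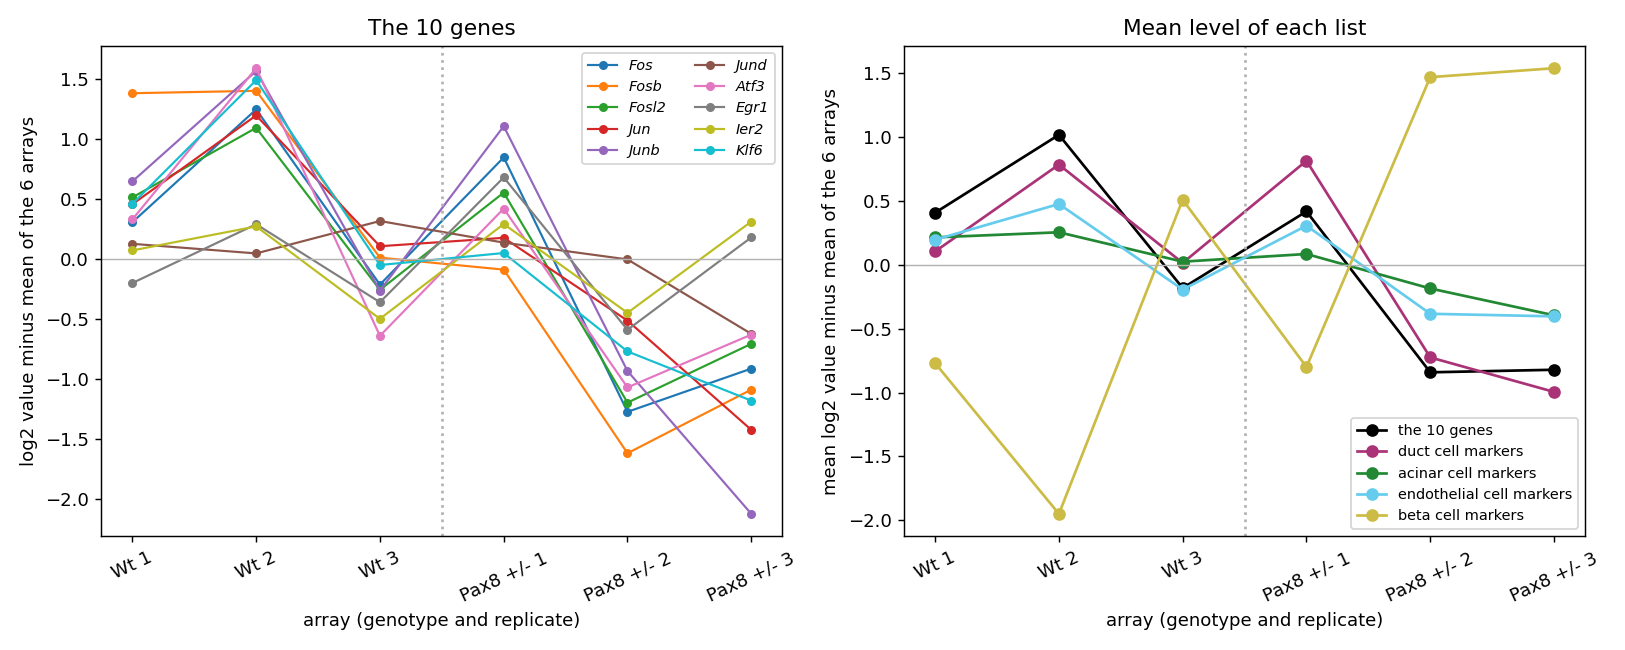
Left, log2 value of each gene minus its mean over the 6 arrays (y axis), by array (x axis, genotype and replicate). Right, the same for the mean level of the 10 genes and of marker lists of duct, acinar, endothelial and beta cells. The mean of the 10 genes is highest on Wt replicate 2, that of the duct markers on Pax8 +/- replicate 1, and that of the beta cell markers on Pax8 +/- replicate 3.

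Markers of other cells moved over the same arrays. Of the 10 duct cell markers listed 8 were measured, 7 of them with a lower mean in Pax8 +/- islets, and the mean level of the list was 12.49 to 13.26 in Wt and 11.48 to 13.29 in Pax8 +/- islets, with Pax8 +/- replicate 1 at the top. Krt18, an epithelial keratin, was at 17.78, 18.58 and 17.26 on the Wt and at 18.35, 15.54 and 15.50 on the Pax8 +/- arrays. Krt7, another keratin and the 1 duct marker with a higher mean, went the other way. It was at 13.58, 12.80 and 14.86 on the Wt and at 13.81, 15.63 and 14.59 on the Pax8 +/- arrays. Of 12 acinar markers 10 were measured, and the list had a mean level of 15.49 to 15.72 in Wt and 15.07 to 15.55 in Pax8 +/- islets. In 5 of the 10, values near the maximum of every array hide any difference and dampen the list mean. Of the other 5, 4 had a lower and 1 a higher mean in Pax8 +/- islets, and 2 were above background on 0 arrays. Of 8 endothelial markers 7 were measured, with a mean level of 8.49 to 9.16 in Wt and 8.28 to 8.99 in Pax8 +/- islets. Of 12 beta cell markers 11 were measured. Of these, Ins2 and Iapp were at the maximum of every array, which hides any difference. For the remaining 9 the mean was higher in the Pax8 +/- group. The mean level of the list was 12.86 to 15.20 in Pax8 +/- and 11.71 to 14.17 in Wt islets. It was lowest on Wt replicate 2, the array with the highest mean of the 10 genes. Of the alpha cell markers 4 of 6 were measured, with a mean level of 12.12 to 12.97 in Wt and 12.22 to 13.24 in Pax8 +/- islets, and of the delta cell markers 4 of 4, with 9.44 to 11.41 and 10.25 to 11.22. Macrophage and mesenchymal markers were mostly at background (7 of 9 and 6 of 8 above it on 0 arrays), with mean levels of 5.06 to 5.30 and 4.80 to 5.47 in Wt and of 5.14 to 5.43 and 4.45 to 5.34 in Pax8 +/- islets. The macrophage marker C1qa passed the thresholds of the study, with a log2 difference of 1.76 (standard error 0.57, adjusted p = 0.745 from limma). It was at 5.83 to 7.21 on the Wt and at 7.22, 9.33 and 8.76 on the Pax8 +/- arrays. Background was exceeded by C1qa on 2 Pax8 +/- arrays alone. Of the 9 macrophage markers, 3 were higher in Pax8 +/- islets without overlap of the groups (4.52% of all gene probe sets), and 5 had a lower mean. The 3 were C1qa and, named after their values were seen, C1qb and C1qc, both above background on 0 arrays. The part of other cells in the levels of the 10 genes was not tested. In bulk islets, fewer cells of a type and less RNA per cell cannot be told apart.

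Leaving out each array in turn changed how many of the 10 genes passed the thresholds of the study. Without Pax8 +/- replicate 1 they were 6 (Fos, Fosb, Fosl2, Jun, Junb and Klf6), where 2.69% of all gene probe sets were lower at these thresholds, and the median log2 difference was -1.47. Of these genes, Fos was below background on every array, and Fosl2 exceeded it only on Wt replicate 2 among the arrays left. The median was nearest to 0 without Wt replicate 2 or Pax8 +/- replicate 2, at -0.53. Junb varied most, from -2.18 (standard error 0.56, adjusted p = 0.111 from limma) without Pax8 +/- replicate 1 to -0.56 (standard error 0.72, adjusted p = 0.931) without Pax8 +/- replicate 3. Without Wt replicate 3 the genes that passed were 4 (Fosb, Jun, Atf3 and Klf6), where 1.00% of all were, and without Wt replicate 1 they were 2 (Fosb and Klf6), where 0.198% were. Without Wt replicate 2, Pax8 +/- replicate 2 or Pax8 +/- replicate 3 Fosb alone passed, where 0.0856%, 0.0766% and 0.135% of all did. Fosb passed in all 6 cases, with log2 differences of -2.33 to -1.52. Its groups do not overlap on these arrays, so that its direction is fixed in every such case and is no sign of stability. The 8 genes with a lower mean kept it in all 6 cases, while Egr1 (-0.11 to 0.52) and Ier2 (-0.12 to 0.36) changed sign.

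**Figure D4:**
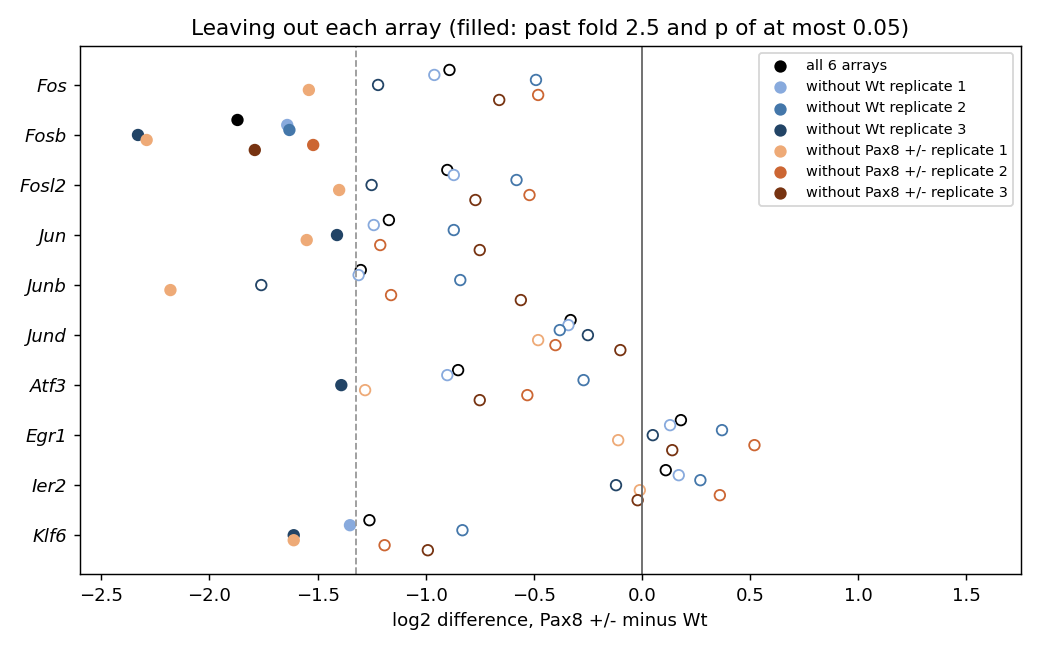
Log2 difference between Pax8 +/- and Wt islets (x axis) of each gene with all 6 arrays and without each array in turn. Filled points passed a fold change of 2.5 (dashed line) with an unadjusted p of at most 0.05. Fosb is filled throughout, and Jund, Egr1 and Ier2 nowhere.

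Of 12 genes listed as other AP-1 and basic leucine zipper partners 11 were measured, 9 of them above background on 0 arrays. Their median log2 difference of -0.37 thus rests mostly on background signal. At an unadjusted p of at most 0.05, 2 of the 11 were lower and 0 higher, against 2.77% and 3.14% of all gene probe sets. The 2 were Maff and Mafg, small Maf proteins without an activation domain, named here after their values were seen. Maff, at 7.89, 7.73 and 7.03 on the Wt and 7.28, 5.79 and 5.27 on the Pax8 +/- arrays, passed the thresholds of the study at -1.43, but both genes were below background on every array. Fosl1, the fourth Fos gene, was above background on all arrays, at 9.40, 9.23 and 9.16 on the Wt and 8.89, 8.56 and 9.01 on the Pax8 +/- arrays. Its groups did not overlap, with a log2 difference of -0.44 (standard error 0.25) and an adjusted p = 0.745 from limma. Atf2, a partner of Jun that is activated by phosphorylation, had a log2 difference of 0.80 (standard error 0.42).

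Means of other immediate early genes lay in both directions, as those of all gene probe sets did. All 34 listed were measured, 17 of them above background on 0 arrays, and the median log2 difference was -0.18, with 20 lower and 14 higher means. At an unadjusted p of at most 0.05, 1 was lower (Klf4, at background and named after its values were seen) and 1 higher, the kinase Sgk1, with a log2 difference of 0.77 (standard error 0.31) and above background on 2 arrays. Among all gene probe sets 2.77% were lower and 3.14% higher at this p, and 50.8% had a lower mean. Of the 34, 0 passed the thresholds of the study. Gadd45b and Gadd45a, stress-induced genes of growth arrest, were lowest on Pax8 +/- replicates 2 and 3 and highest on Pax8 +/- replicate 1. Gadd45b was at 8.77, 8.94 and 8.29 on the Wt and at 8.96, 6.73 and 6.64 on the Pax8 +/- arrays, a log2 difference of -1.22 (standard error 0.59, adjusted p = 0.745 from limma). For Gadd45a the difference was -0.81 (standard error 0.40), and for Ier3, a survival gene, -1.20 (standard error 0.66).

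Genes that AP-1 is known to control and genes that act upstream of it were examined as well. Of 24 target genes 19 were measured, 15 with a lower mean and 0 at an unadjusted p of at most 0.05 in either direction, with a median log2 difference of -0.30. Background was exceeded on 0 arrays by 10 of the 19 and on all 6 arrays by 1, so that the count of lower means rests in part on background signal. Among all gene probe sets 50.8% had a lower mean. Plaur, the urokinase receptor, was at 8.61, 9.22 and 8.04 on the Wt and at 9.14, 6.95 and 6.81 on the Pax8 +/- arrays, a log2 difference of -0.99 (standard error 0.62). The gap junction gene Gja1 had a difference of -0.83 (standard error 0.57) and the prostaglandin synthase Ptgs2 of -1.21 (standard error 1.03). For the adhesion receptor Cd44 it was 0.63 (standard error 0.42). Gja1 exceeded background on 3 arrays and Ptgs2 on 2. Of 19 MAP kinase pathway genes 13 were measured, with a median of -0.06. Map2k3, which activates p38, was lower at -0.65 (standard error 0.28, unadjusted p = 0.0498 from limma), and the JNK gene Mapk9 had a difference of 0.51. Differences of the kinases Rps6ka3 and Map2k1 were -0.45 and -0.51. Of 14 genes for serum response factor, its partners, CREB and CREB coactivators 13 were measured, 3 of them above background on 0 arrays. A higher mean was found for 11 of the 13, against 10936 of all 22206 gene probe sets, and the median was 0.43. At an unadjusted p of at most 0.05, 1 was higher (3.14% of all) and 0 lower (2.77% of all). Crtc3, a CREB coactivator, passed the thresholds of the study at 1.37 (standard error 0.50, adjusted p = 0.745 from limma), with levels of 6.45, 6.94 and 7.94 on the Wt and 7.52, 8.81 and 9.10 on the Pax8 +/- arrays. It exceeded background on 1 Wt and 2 Pax8 +/- arrays. The other coactivator Crtc1 had a difference of 1.11, Elk3 of -0.54 and Creb1 of 0.63. Symbols of these lists that found no named probe set were not analysed here.

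**Figure D5:**
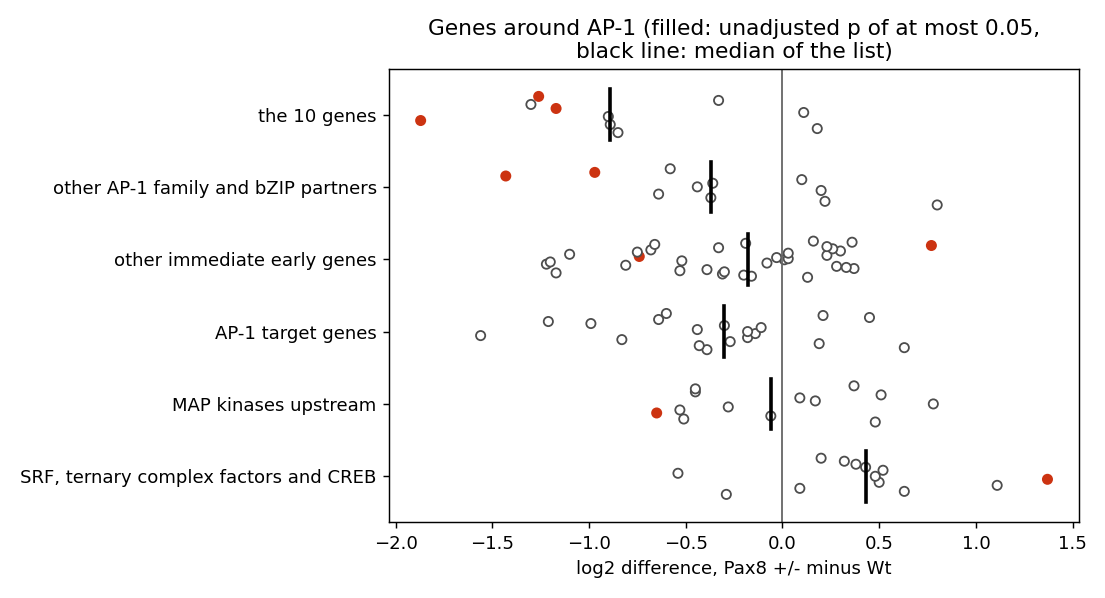
Log2 difference between Pax8 +/- and Wt islets (x axis) of the 10 genes and of the measured genes of 5 further lists (rows). Red points passed the p threshold of 0.05 in limma, and black lines are the medians, from -0.89 for the 10 genes to 0.43 for serum response factor, its partners and CREB.

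Among named genes above background on all arrays, those whose levels were most like the mean of the 10 over the 6 arrays were Parp9 (Pearson's r = 0.996), Defb1 (r = 0.995), Errfi1 (r = 0.994), Mpp6 (r = 0.993) and Oser1 (r = 0.992). Errfi1, a feedback inhibitor of the EGF receptor, was at 12.00, 12.75 and 11.31 on the Wt and at 12.23, 10.59 and 10.43 on the Pax8 +/- arrays. Defb1, a defensin of epithelia, was at 13.15, 13.79 and 12.19 on the Wt and at 12.91, 11.13 and 11.35 on the Pax8 +/- arrays. In both genes Pax8 +/- replicate 1 again lay within the Wt range. Log2 differences of the 5 genes ran from -1.25 (Defb1) to -0.47 (Parp9). They were picked from all probe sets for this likeness, so that their r carries no test.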

How the data were processed

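Clariom S arrays of islet RNA from 3 Wt and 3 Pax8 +/- samples were analysed. RMA and the Transcriptome Analysis Console are the tools in the submitters' processing notes, without versions, and the genome build was not stated. The authors deposited log2 values per probe set (28846), from which 5222 negative and 1418 other controls were left out. Symbols came from the platform annotation (19572 probe sets with 1 symbol, 2634 unnamed here), updated through RefSeq (GRCm38.p6).

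Groups were taken from the genotype label and compared in R 4.3.3 by limma 3.58.1 (linear fit with empirical Bayes moderation, 2-sided, 4.32 prior degrees of freedom) over 22206 gene probe sets without filter, with Benjamini-Hochberg adjustment over all of them. The code was tested on simulated data. Alternatives were no moderation, a trend with robust prior, array weights, quantile and median scaling, leaving out the dimmest 33.3%, the replicate number as a block, a fold change of 2, averaged probe sets, and each array left out. Named are the 10 genes, Pax8, the 4 genes of each list with the smallest p above background on any array, and the 5 most alike, and other names are said to be chosen later. Ins2, Iapp, Gcg, Krt18, Krt7 and C1qa stand for marker lists whose other genes are only summarized. Genes and lists were chosen with earlier results of these data known.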

Additional observations from a re-analysis of the deposited data

How the results depend on the processing

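The median log2 difference of the 10 genes (-0.89) moved by less than the spread between replicates (0.66) under every alternative run, from -1.18 with array weights to -0.88 with each array scaled to 1 median, and from -1.47 to -0.53 over the leave-outs. Of 140 values of single genes under 14 alternatives, 123 kept direction and call, 12 gained the call and 5 changed sign. The number of the 10 genes lower at the thresholds of the study (1, Fosb) was 3 with array weights (Fosb, Junb and Klf6, where 1.38% of all gene probe sets were lower), 2 with quantile normalization (Fosb and Klf6, 0.338% of all), 3 at a fold change of 2 (Fosb, Jun and Klf6, 0.838% of all), and 1 to 6 when each array was left out. At the p threshold alone the 3 were 6 with array weights (6.27% of all), 1 without moderation (2.40% of all) and 1 to 6 over the leave-outs (1.18% to 7.35% of all). Ier2, at background, changed sign with array weights (-0.05), without Wt replicate 3 (-0.12), without Pax8 +/- replicate 1 (-0.01) and without Pax8 +/- replicate 3 (-0.02), and Egr1 without Pax8 +/- replicate 1 (-0.11). Over the leave-outs Ier2 ran from -0.12 to 0.36 and Egr1 from -0.11 to 0.52, and the cause was not tested. Over all gene probe sets the count lower at these thresholds was 78, against 16 without moderation, 306 with array weights, 145 with the replicate block and 17 to 597 over the leave-outs, and the count higher was 144, against 19, 494, 203 and 24 to 740. Of the alternatives run, only leaving out Pax8 +/- replicate 1 gave any at an adjusted p under 0.05 (29). With the replicate block the count of the 10 genes stayed 1 and their median -0.89. Deviations of same-numbered arrays correlated at 0.00, -0.42 and 0.14, and those of differently numbered arrays at -0.448 to 0.475. These values show no pairing by number, but with 3 arrays per group they cannot exclude one. Signal near background limits Fos, Ier2, Fosl2 and the Pax8 +/- values of Fosb.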
